A study of Homo sapiens with 21 samples.

Results

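The genes described here were 9 readouts and feedback regulators of SMAD signaling, chosen by name and taken from the 58870 genes of each expression file by their Ensembl identifiers. They were SMAD3, SMAD7, ID1, ID2, ID3, BAMBI, INHBA, PMEPA1 and SKIL. All 9 were found, and all 9 were above the filter on low values in every library, so that no member was tested only through a group where it was high. The series held 21 libraries of messenger RNA in 7 groups of 3, all labelled as A375, an established human BRAF-mutant melanoma cell line, and it was made to ask what loss of the neural crest transcription factor SOX10 does to melanoma cells and their tolerance of targeted drugs. The parental group was untreated A375. The groups gSOX10 #2 and gSOX10 #4 were SOX10 knockout clones made with CRISPR/Cas9 and different guides, each of them a single clone, with no drug named in their labels. The labels give the gSOX10 #4 libraries the cell line A375, but their titles carry a clone number that the study's text uses for a knockout clone of another melanoma line, MeWo. Which is right was not tested, so the line behind every gSOX10 #4 value is uncertain. CRT34 and CRT35 were A375 derivatives tolerant or resistant to combined BRAF and MEK inhibition that arose in tumors grown in mice, and each is likewise 1 line. They were profiled with the inhibitors (Combo, PLX4720 against BRAF at 1 uM and PD0325901 against MEK at 35 nM) or with DMSO. How long the DMSO libraries had been off the inhibitors is not given in the sources used here. The study describes the libraries of the A375 knockout clones as independent replicates. For the parental and CRT groups no separate cultures are named in the sources used here, so the p-values measure the spread between these libraries, which may be technical.

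Ligands of the TGF-beta family signal through paired receptor kinases that phosphorylate SMAD transcription factors. TGF-beta and activin act mainly through SMAD2 and SMAD3, and bone morphogenetic proteins (BMPs) through SMAD1, SMAD5 and SMAD9, each with SMAD4 as the shared partner. Activated SMADs switch on their own brakes: SMAD7 blocks the receptors, BAMBI is a pseudoreceptor that lacks a kinase, PMEPA1 binds SMADs and turns the signal down, and SKIL (also called SnoN) is a SMAD corepressor. ID1, ID2 and ID3 are the classical BMP-responsive genes, and their proteins sequester basic helix-loop-helix (HLH) factors that would otherwise bind E-box DNA. INHBA encodes the subunit from which activin A is built. In melanoma this pathway is known for its part in invasive, mesenchymal-like states and in drug tolerance.

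The upstream DNA of the members was examined because these genes are read as direct targets. RefSeq start sites on GRCh38.p14 gave 18 windows of 250 bases upstream for the 9 members. They were searched on both strands for the SMAD binding box CAGAC and its reverse complement, the GC-rich SMAD site GGCGCC and the E-box CANNTG, whose letters can share bases with the SMAD box. The box was present in 9 of the 18 member windows and 38.0% of all 35116 windows, the GC-rich site in 4 and 16.4%, and the E-box in 9 and 61.8%. Windows of 5 members are shown, 5' to 3' on the strand of the gene, with the SMAD box and GC-rich site in capitals. ID1 (chr20:31605039-31605288, plus strand) and ID3 (chr1:23559502-23559751, minus strand) are shown as ID genes whose levels varied together between libraries, SMAD7 (chr18:48950966-48951215, minus strand, the most upstream of 3 starts) as the inhibitor that was above parental in every library, BAMBI (chr10:28677271-28677520, plus strand) as the member that moved apart between the knockout clones, and PMEPA1 (chr20:57710016-57710265, minus strand, the third of 4 starts) as the member with the largest fall. None of them overlapped an annotated untranslated region except that of ID1, over 6 bases.
ID1: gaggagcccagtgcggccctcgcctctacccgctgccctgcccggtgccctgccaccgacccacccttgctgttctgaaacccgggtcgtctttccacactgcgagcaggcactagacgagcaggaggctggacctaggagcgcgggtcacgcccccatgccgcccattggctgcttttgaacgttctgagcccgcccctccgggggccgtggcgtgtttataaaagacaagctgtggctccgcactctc
ID3: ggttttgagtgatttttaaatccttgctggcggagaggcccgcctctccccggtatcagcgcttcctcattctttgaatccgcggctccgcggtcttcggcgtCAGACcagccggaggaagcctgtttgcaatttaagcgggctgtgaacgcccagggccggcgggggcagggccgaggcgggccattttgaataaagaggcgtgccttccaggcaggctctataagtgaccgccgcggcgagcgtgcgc
SMAD7: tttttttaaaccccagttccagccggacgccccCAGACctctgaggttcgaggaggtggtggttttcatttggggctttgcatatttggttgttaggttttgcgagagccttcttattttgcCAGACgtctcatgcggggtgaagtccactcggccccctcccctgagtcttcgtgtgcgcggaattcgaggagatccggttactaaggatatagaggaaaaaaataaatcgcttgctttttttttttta
BAMBI: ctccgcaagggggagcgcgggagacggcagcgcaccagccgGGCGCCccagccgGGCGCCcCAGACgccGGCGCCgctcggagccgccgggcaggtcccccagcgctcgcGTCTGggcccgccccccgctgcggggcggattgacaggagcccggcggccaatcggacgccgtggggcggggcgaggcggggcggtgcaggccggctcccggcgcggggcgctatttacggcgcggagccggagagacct
PMEPA1: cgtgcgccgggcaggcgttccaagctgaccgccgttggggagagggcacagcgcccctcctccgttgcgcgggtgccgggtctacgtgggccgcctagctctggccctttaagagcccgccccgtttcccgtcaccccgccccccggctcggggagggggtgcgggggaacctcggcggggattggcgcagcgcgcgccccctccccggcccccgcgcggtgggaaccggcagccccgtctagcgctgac
Within its 250 bases ID1 held no match, and ID3 held 1 box. DNA outside the windows was not searched. The SMAD7 window held 2 boxes. BAMBI held 2 boxes and 3 GC-rich sites, and the PMEPA1 window shown held neither, whereas 2 of the other three PMEPA1 windows held a box and 1 a GC-rich site. A match is a match of letters, and binding was not measured in this series.

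The deposited values were normalized gene counts with totals of 59.2 to 68.3 M per library, and depth, read from the smallest steps in the values, was about 27.1 to 75.5 M reads. The shallowest library was CRT35 DMSO replicate 1. SOX10 itself was 10348 to 12822 in the parental libraries, 392 to 504 in gSOX10 #2 and 456 to 517 in gSOX10 #4. It was listed at 0 in all 6 Combo libraries and all CRT35 DMSO libraries, and at 6.32, 0 and 0.974 in CRT34 DMSO. DUSP6, a phosphatase that reads out ERK activity, averaged 1952 under Combo and 11419 under DMSO in CRT34, and 3100 and 14865 in CRT35. Of 7 melanocytic markers MLANA and TYR were at 0 in the parental and knockout libraries, while MITF averaged 1447, PMEL 38.5 and TYRP1 28.1 in parental. MITF was called higher in CRT34 Combo (mean 7658) and CRT35 Combo (3382). TYRP1 was called higher in CRT34 Combo (621), CRT34 DMSO (386) and CRT35 Combo (199), whereas TYRP1 (7.40) and PMEL (17.1) were called lower in gSOX10 #4. Of 4 melanocytic markers tested, SOX10 among them, 0 to 2 were called higher and 1 to 3 lower in each comparison with parental. The lower calls were 3 in gSOX10 #4 and 2 in CRT34 DMSO. In the 6 comparisons with parental, 11.8% to 20.1% of all genes were called higher and 7.35% to 10.2% lower. A list of 7 fibroblast markers summed to 523 to 649 in parental libraries, 1423 to 2794 in the knockout clones and 101810 to 327730 in the CRT libraries, where 7 of 7 were called higher in each CRT group and none was at 0. A list of 7 leukocyte markers summed to 1580 to 1700 in parental, 3736 to 8255 in the knockout clones and 3189 to 16903 in the CRT libraries. CD68, a lysosomal protein of macrophages, averaged 1222 in parental and 4213 to 12673 in the other groups, and the T cell marker CD3E was at 0 in parental. LYZ, on the same list, averaged 400 in parental and was called lower in gSOX10 #2 (55.2) and gSOX10 #4 (14.6). Of 5 leukocyte markers tested, 1 to 3 were called higher and 1 lower in each comparison with parental. A list of 6 endothelial markers summed to 168 to 220 in parental, 130 to 239 in the knockout clones and 1943 to 7672 in the CRT libraries. TEK, an endothelial receptor kinase, averaged 36.2 in parental and 1713 to 5995 in the CRT groups, while CLDN5 was at 0 in parental. Among the 5 endothelial markers tested, 1 to 3 were called higher and 1 to 2 lower in each comparison with parental. KDR, on that list, was called lower in gSOX10 #2 (log2 difference -4.11) and gSOX10 #4 (-3.16). PECAM1, also on it, was called higher in these clones (3.14 and 3.27), so the list did not move in 1 direction. The keratinocyte markers KRT1, TP63 and IVL were at 0 in parental, and the sum of that list of 7 ran from 1135 to 2158 over all libraries. In bulk RNA, fewer cells of a type and less RNA per cell cannot be told apart, and the part of the marker lists in the members' values was not tested.

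SMAD3, SMAD7, ID2 and ID3 were higher than every parental library in all 18 libraries outside the parental group, a pattern shown by 7.56% of the 19290 genes tested. No member lay below the parental range in all 18, as 8.83% of those genes did. A call required a difference of 2-fold or more together with an adjusted p from limma no higher than 0.05, and only SMAD3 and ID2 were called higher in all 6 comparisons with the parental line. In gSOX10 #2, 4 of 9 members rose and 0 fell (SMAD3, ID1, ID2 and ID3), against 15.9% of all genes called higher and 7.78% called lower. In gSOX10 #4, SMAD3, SMAD7, ID2 and ID3 rose and BAMBI fell, 4 and 1 of 9 against 11.8% and 8.91%. CRT34 Combo had SMAD3 and ID2 higher and INHBA and PMEPA1 lower, 2 and 2 of 9 against 19.1% and 8.09%. CRT34 DMSO had SMAD3, SMAD7, ID1 and ID2 higher and none lower, against 15.7% and 7.35%. CRT35 Combo had SMAD3, ID1, ID2 and ID3 higher and PMEPA1 lower, 4 and 1 of 9 against 20.1% and 10.2%. CRT35 DMSO had SMAD3 and ID2 higher and PMEPA1 lower, 2 and 1 of 9 against 15.7% and 7.98%. The median log2 difference of the members lay between 0.40 (CRT35 DMSO) and 1.00 (CRT34 DMSO), while that of all genes lay between 0 and 0.05. The comparisons share the 3 parental libraries and are not independent of each other.

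**Figure D1:**
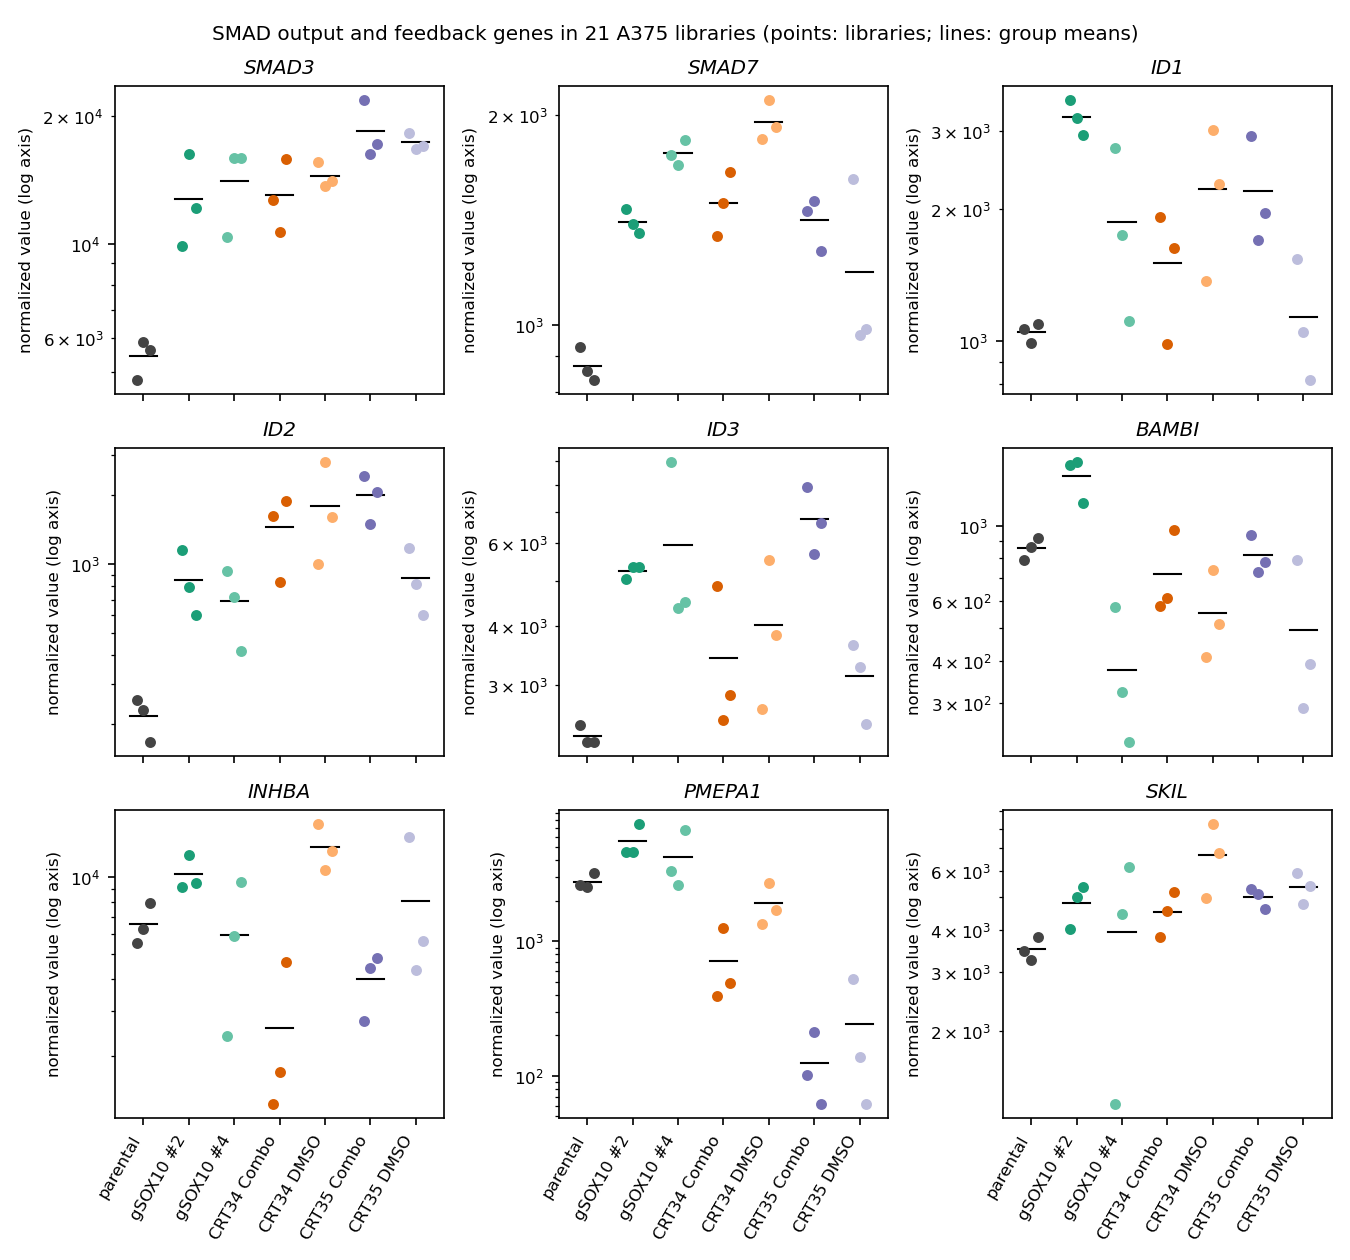
Normalized value (log axis) of each of the 9 genes in every library, with points for libraries and lines for group means. SMAD3, SMAD7, ID2 and ID3 lie above all 3 parental libraries in each of the other 18, and PMEPA1 lies lowest in the 2 CRT35 groups.

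**Figure D2:**
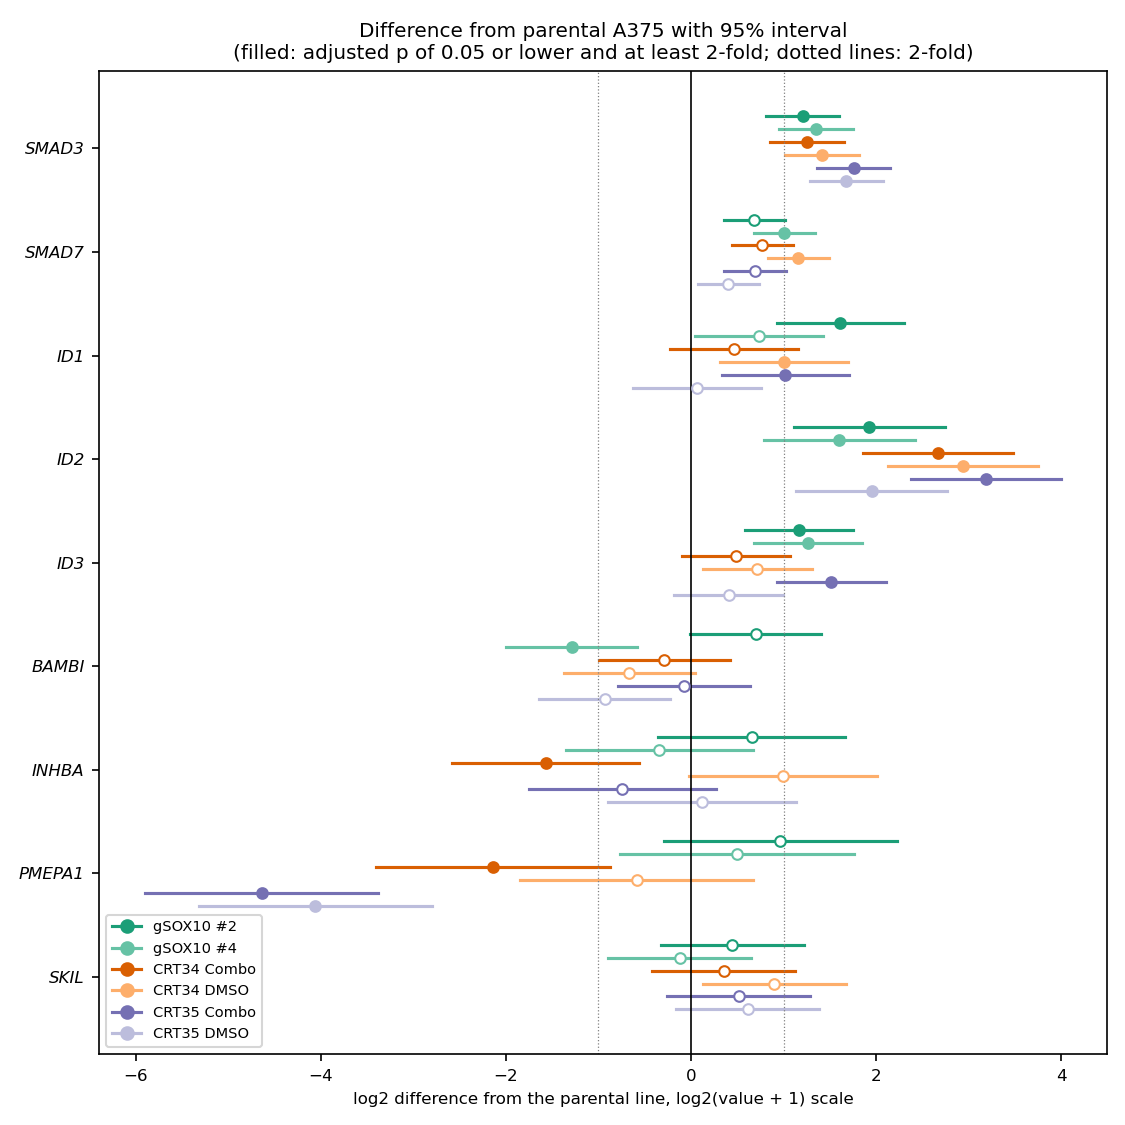
Log2 difference of each gene from the parental line on the log2(value + 1) scale, with the 95% interval of limma for 6 groups; filled points were called. SMAD3 and ID2 are filled in all 6 groups, and SKIL in none.

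SMAD3, a receptor-activated SMAD of TGF-beta and activin, was more than 2-fold above parental in every group. It measured 4779, 5885 and 5626 in the parental libraries. It measured 9862, 16262 and 12168 in gSOX10 #2 and 10373, 15908 and 15965 in gSOX10 #4. No library of either clone overlapped the parental range. The log2 differences were 1.21 (SE 0.19, limma adjusted p = 5.6e-05) and 1.35 (SE 0.19, adjusted p = 2.0e-05). In CRT34 SMAD3 measured 12723, 10657 and 15834 under Combo and 15593, 13680 and 14037 under DMSO. CRT35 stood highest, at 21836, 16267 and 17216 under Combo and 18268, 16702 and 17053 under DMSO. The CRT35 libraries were all above the CRT34 DMSO libraries, and with or without the inhibitors CRT35 differed from parental by 1.76 and 1.68 (SE 0.19 each, limma adjusted p = 4.2e-07 and 9.4e-07). Between neighbours in the order of group means, only parental against gSOX10 #2 and CRT34 DMSO against CRT35 DMSO did not overlap. The SMAD3 difference between CRT35 DMSO and CRT34 DMSO was 0.27 (95% interval -0.13 to 0.66, limma adjusted p = 0.40).

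SMAD7, the inhibitory SMAD that caps the receptors, rose less. It was 929, 858 and 833 in the parental libraries, and 967 was the lowest value of any other library. In gSOX10 #4 it measured 1748, 1692 and 1838, and in CRT34 DMSO 1844, 2099 and 1920. These were the groups in which SMAD7 passed 2-fold, with log2 differences of 1.01 and 1.16 (SE 0.16 each, limma adjusted p = 6.9e-05 and 1.2e-05). The first of these sat on the threshold and fell under 2-fold in 4 of 12 alternative fits, down to 0.94 under quantile normalization and 0.98 without gSOX10 #4 replicate 3 or parental replicate 3. In CRT35 DMSO, gSOX10 #2, CRT35 Combo and CRT34 Combo the log2 differences were 0.40, 0.68, 0.69 and 0.77, with limma adjusted p between 0.00064 and 0.048 but under 2-fold. CRT35 DMSO spread most, from 967 and 987 in replicates 2 and 3 to 1616 in replicate 1, the library of lowest depth. Without that library its SMAD7 difference was 0.16 and limma's adjusted p 0.36.

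ID2, a BMP-responsive gene whose protein inhibits basic HLH factors, had the largest rises of the members. The parental libraries measured 256, 230 and 167. The knockout clones measured 1152, 792 and 601 in gSOX10 #2 and 931, 716 and 418 in gSOX10 #4. All 6 lay above the parental range, with log2 differences of 1.93 (SE 0.39, limma adjusted p = 0.00059) and 1.60 (SE 0.39, adjusted p = 0.0032). CRT34 measured 1622, 838 and 1889 under Combo and 1004, 2789 and 1614 under DMSO. CRT35 measured 2438, 1498 and 2064 under Combo and 1182, 819 and 596 under DMSO. CRT35 Combo was the highest group, at 918% of the parental mean, and its log2 difference was 3.19 (SE 0.39, limma adjusted p = 1.9e-06). In the order of group means every pair of neighbours above the parental group overlapped. ID2 was called higher under every alternative tried in these 6 comparisons, with log2 differences from 1.35 to 3.38.

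ID1 and ID3 were called in 3 of the 6 comparisons each. ID1 measured 1069, 990 and 1098 in the parental libraries and 3530, 3220 and 2941 in gSOX10 #2. That clone was the highest ID1 group, with no overlap with the parental libraries and a log2 difference of 1.61 (SE 0.33, limma adjusted p = 0.00065). In gSOX10 #4 the libraries ran from 1113 to 2752, and the difference of 0.73 did not pass (SE 0.33, limma adjusted p = 0.086). ID1 was called higher in CRT34 DMSO, where it measured 1368, 3011 and 2277, and in CRT35 Combo, where it measured 2931, 1695 and 1954. Both calls were on the threshold, at 1.00 and 1.02 (SE 0.33 each, limma adjusted p = 0.020 and 0.014). Each was lost in several alternatives, the lowest values being 0.75 without CRT34 DMSO replicate 2 and 0.79 without CRT35 Combo replicate 1. In CRT35 DMSO ID1 measured 1541, 1049 and 818, which spans the parental range.

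ID3 measured 2469, 2266 and 2272 in the parental libraries. It measured 5039, 5342 and 5352 in gSOX10 #2 and 8926, 4376 and 4511 in gSOX10 #4. Its log2 differences in the clones were 1.17 and 1.26 (SE 0.28 each, limma adjusted p = 0.0024 and 0.0016), and without gSOX10 #4 replicate 1 the latter was 0.93, under 2-fold. CRT35 Combo was the highest group, at 7916, 5700 and 6623, with a log2 difference of 1.52 (SE 0.28, limma adjusted p = 0.00018). The ID3 libraries of CRT34 ran from 2531 to 5526 and those of CRT35 DMSO from 2478 to 3647. They were all above the parental range, though the lowest, 2478, stood close to the highest parental library, 2469. The log2 differences were under 2-fold, at 0.49 in CRT34 Combo, 0.72 in CRT34 DMSO and 0.41 in CRT35 DMSO. Limma's adjusted p was 0.16, 0.046 and 0.26 in that order, so only CRT34 DMSO was under 0.05.

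The ID genes also varied together among libraries of the same group. Over the 36 pairs of members, the correlation of deviations from the 7 group means (21 libraries, log2 scale) ran from -0.51 for ID3 with INHBA to 0.89 for ID1 with ID2, and ID1 with ID3 came next at 0.87. ID2 with ID3 gave 0.71. The deviations had the same sign in 16 of 21 libraries for ID1 with ID2, 14 for ID1 with ID3 and 13 for ID2 with ID3. Such counts were not particular to the ID genes: SMAD3 with INHBA had 17, and SMAD3 with BAMBI had 15 at a correlation of -0.053. BAMBI, another BMP-responsive gene, gave 0.75 with ID1 and 0.71 with ID2, and SMAD7 with PMEPA1 gave 0.72. Libraries of a group share a line and a treatment, and each point carries the depth and preparation of its library, so these values are a description. In gSOX10 #4 replicate 1 all 3 ID genes were above their group mean, by 0.51 to 0.67 on the log2 scale, and in CRT34 DMSO replicate 1 all 3 were below it, by -0.52 to -0.72.

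**Figure D3:**
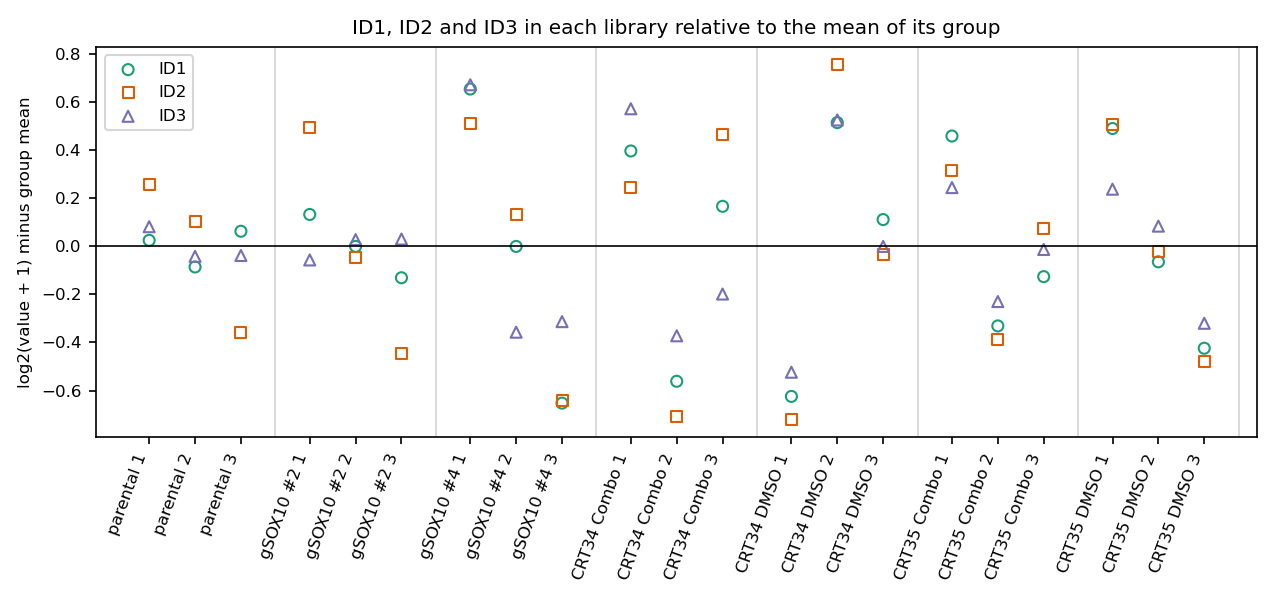
Deviation of ID1, ID2 and ID3 from the mean of their group in each of the 21 libraries, on the log2(value + 1) scale. The symbols sit together in some libraries, as in gSOX10 #4 replicate 1 (0.51 to 0.67) and CRT34 DMSO replicate 1. They lie apart in others, as in CRT34 Combo replicate 3 (0.46 for ID2 and -0.20 for ID3).

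BAMBI, the kinase-less pseudoreceptor, moved apart in the libraries labelled as knockout clones, of which gSOX10 #4 has the uncertain line. It measured 792, 862 and 919 in the parental libraries, 1507, 1537 and 1163 in gSOX10 #2 and 574, 324 and 230 in gSOX10 #4. Every gSOX10 #2 library was above the parental range and every gSOX10 #4 library below it. The rise in gSOX10 #2 was 0.70 (95% interval -0.01 to 1.41, limma adjusted p = 0.10) and the fall in gSOX10 #4 was -1.29 (SE 0.34, adjusted p = 0.0056), or -0.99 without replicate 3 of that clone. The CRT libraries ran from 291 to 970. Their log2 differences were -0.29 and -0.67 in CRT34 and -0.08 and -0.93 in CRT35, for Combo and DMSO respectively, and none was called. Of the CRT35 DMSO libraries, replicate 1 measured 791 and the others 291 and 392. Without it the difference from parental was -1.34 (limma adjusted p = 0.0035).

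INHBA, the activin A subunit, was called in only 1 comparison with the parental line, and its libraries scattered. The parental libraries measured 5526, 6284 and 7927. It measured 9196, 12283 and 9531 in gSOX10 #2, above the parental range, but 2392, 5898 and 9598 in gSOX10 #4. The log2 differences were 0.66 (95% interval -0.36 to 1.67, limma adjusted p = 0.29) and -0.34 (95% interval -1.35 to 0.67, adjusted p = 0.61). CRT34 measured 1297, 1735 and 4664 under Combo and 16113, 10667 and 12692 under DMSO. CRT35 measured 2745, 4422 and 4851 under Combo and 14359, 4343 and 5646 under DMSO. Both Combo groups lay wholly below the parental range, and CRT34 DMSO wholly above it. The called fall, in CRT34 Combo, was -1.57 (SE 0.48, limma adjusted p = 0.012), and it was lost without replicate 1 (-1.19, adjusted p = 0.073).

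PMEPA1, a membrane protein that binds SMADs and dampens TGF-beta signaling, had the largest falls. It measured 2618, 2537 and 3203 in the parental libraries. It measured 102, 211 and 61.9 in CRT35 Combo and 527, 138 and 61.3 in CRT35 DMSO. The group means were 4.49% and 8.69% of the parental mean, and all 6 libraries lay below the parental and CRT34 DMSO libraries. The log2 differences were -4.64 and -4.06 (SE 0.60 each, limma adjusted p = 4.0e-06 and 2.5e-05). CRT34 Combo measured 394, 1263 and 494, a difference of -2.14 (SE 0.60, limma adjusted p = 0.0069), whereas CRT34 DMSO measured 1337, 2722 and 1724 and overlapped the parental range. Its difference of -0.59 had a 95% interval from -1.85 to 0.68. In the knockout clones PMEPA1 was not lower: it measured 4624, 4615 and 7426 in gSOX10 #2 and 3350, 2636 and 6792 in gSOX10 #4. The differences of 0.97 and 0.50 did not pass, with intervals of -0.30 to 2.23 and -0.76 to 1.76.

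SKIL, the SMAD corepressor, was called in none of the 6 comparisons with parental. It measured 3462, 3247 and 3799 in the parental libraries. It lay above that range in 16 of the other 18 libraries, up to 8238 in CRT34 DMSO replicate 2. The exceptions were CRT34 Combo replicate 1 at 3796 and gSOX10 #4 replicate 1 at 1207, against 4448 and 6156 in the other libraries of that clone. The log2 differences ran from -0.12 in gSOX10 #4 to 0.90 in CRT34 DMSO (95% interval 0.13 to 1.67, limma adjusted p = 0.057). Without gSOX10 #4 replicate 1, the library also lowest for INHBA and highest for ID3 in its group, the SKIL difference there was 0.58 (limma adjusted p = 0.025).

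Few members differed between Combo and DMSO. In CRT34, Combo against DMSO called INHBA lower and no member higher, 1 of 9 lower against 2.26% of all genes and 0 of 9 higher against 2.84%. No Combo library of CRT34 reached the DMSO range for INHBA, and the log2 difference was -2.57 (SE 0.48, limma adjusted p = 0.0030). A fit to the 6 compared libraries alone gave an adjusted p of 0.066. Replicate 3 of CRT34 Combo stood apart from the other two, and without it the difference was -3.11 (limma adjusted p = 0.00025). PMEPA1 differed by -1.56 (limma adjusted p = 0.13) and SMAD7 by -0.39 (adjusted p = 0.15), each with every Combo library below every DMSO library. Of the 9 members, 3 had an unadjusted limma p under 0.05 in CRT34. The shares of all genes under that p, or without overlap, are not given here, so these counts are not read as an excess. SMAD3 differed by -0.16 (95% interval -0.56 to 0.24) and the ID genes by -0.54 to -0.23, none of which passed.

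In CRT35, limma called 0 of 9 members between Combo and DMSO, against 0.487% of all genes called higher and 0.648% lower. An unadjusted limma p under 0.05 was found for 4 of 9, and here too the shares of all genes under that p or without overlap are not given. ID3 measured 5700 to 7916 under Combo and 2478 to 3647 under DMSO with no overlap, a log2 difference of 1.11 (SE 0.28, limma adjusted p = 0.052). ID2 also did not overlap and differed by 1.23 (SE 0.39, limma adjusted p = 0.13). ID1 differed by 0.96 (SE 0.33, limma adjusted p = 0.16), again with no overlap, and BAMBI by 0.86 (SE 0.34, adjusted p = 0.23). ID3 was on the other side of the threshold in 4 of 13 alternatives, among them a pseudocount of 10 (adjusted p = 0.046). The INHBA difference of -0.86 in CRT35 shrank to -0.35 without DMSO replicate 1, and that of PMEPA1 went from -0.58 to 0.25. For the ID genes the estimates thus had opposite signs in the CRT lines. The tests of that difference gave 1.49, 1.51 and 1.34 for ID1, ID2 and ID3 (SE 0.47, 0.55 and 0.40), with limma adjusted p of 0.43, 0.54 and 0.39, so a difference between the lines was not shown. Of the 9 members 0 were called by limma in this test, against 0.0104% of all genes. An unadjusted limma p under 0.05 was found for 5 of 9, again with no share of all genes beside it. With CRT34 Combo replicate 3 and CRT35 DMSO replicate 1 both left out, INHBA was called, at 2.76 (limma adjusted p = 0.018).

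**Figure D4:**
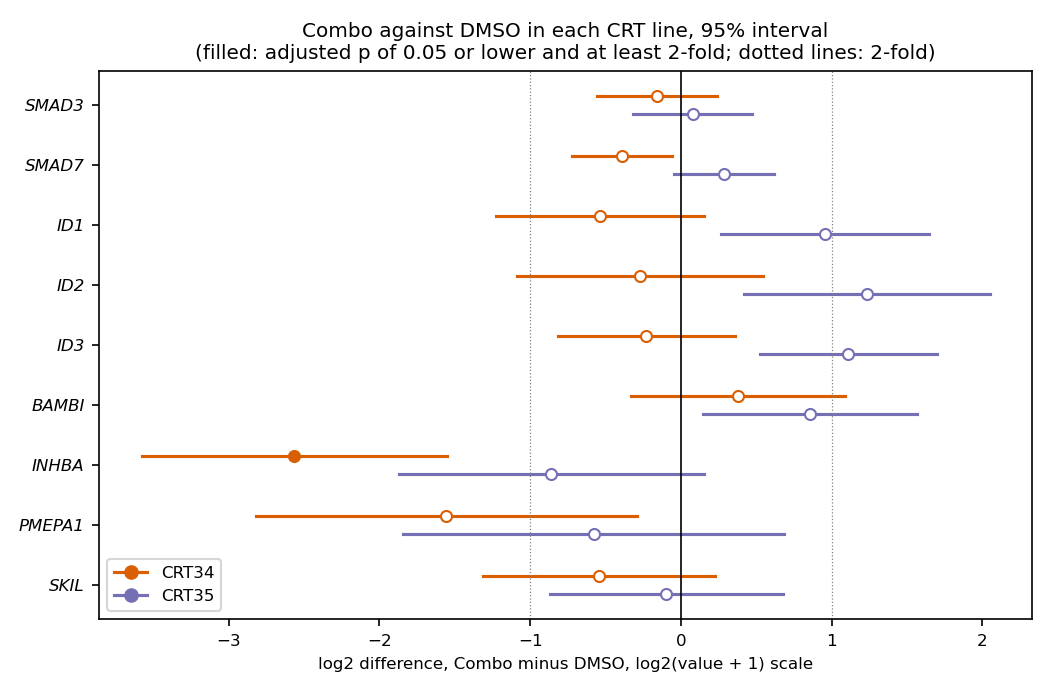
Log2 difference of each gene between Combo and DMSO in CRT34 and CRT35, with limma's 95% interval; filled points were called. INHBA in CRT34 (-2.57) is the filled point, and ID1, ID2 and ID3 lie below 0 in CRT34 and above 0 in CRT35.

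Direct tests between the clones, and between the CRT lines off the inhibitors, called 1 member each. Between the clones, gSOX10 #4 had lower BAMBI than gSOX10 #2 by -1.99 (SE 0.34, limma adjusted p = 0.00037), 1 of 9 members lower against 7.06% of all genes, with 0 of 9 higher against 2.64%. ID1 was also lower in gSOX10 #4 in every library, by -0.88, and did not pass (limma adjusted p = 0.064). Without gSOX10 #4 replicate 1 or 3 further members were called, so that the number lay between 1 and 3. Between the CRT lines off the inhibitors, PMEPA1 was lower in CRT35 by -3.47 (SE 0.60, limma adjusted p = 0.00060), 1 of 9 lower against 4.42%, with 0 of 9 higher against 3.69%. SMAD7 was lower in CRT35 DMSO by -0.76 (limma adjusted p = 0.0028), under 2-fold, and no library of the lines overlapped. Without CRT35 DMSO replicate 1 the PMEPA1 difference was -4.31 and ID1 was called as well (-1.19, limma adjusted p = 0.036).

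Other genes of the pathway were counted from lists set from general knowledge, but with earlier results of these data known. Beside each count, 11.8% to 20.1% of all genes were called higher and 7.35% to 10.2% lower in the 6 comparisons with parental. Of 6 other SMAD genes, between 0 and 1 rose in each comparison with parental. SMAD9, a BMP-responsive SMAD, was the riser, in all 4 CRT groups (log2 1.48 to 2.56), while SMAD1 fell in both knockout clones (-1.01 and -1.07) and the inhibitory SMAD6 fell in CRT35 DMSO (-1.45). SMAD2, SMAD4 and SMAD5 were called in none. Of 12 ligand genes tested, 2 to 6 rose and 1 to 2 fell. TGFB2 rose in every group but gSOX10 #4 (2.93 to 6.22), BMP6 fell in every group but CRT34 DMSO, and BMP1, which despite its name is a procollagen protease, rose in all 6. Of 12 receptor genes, 2 to 5 rose and 0 to 2 fell. The type II receptor TGFBR2 and the type I receptor ACVRL1 rose in all 6, by 1.64 to 3.09 and 3.13 to 4.49, and the activin receptor ACVR2B fell in all but gSOX10 #4.

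Among 9 secreted antagonists 0 to 6 rose and 1 to 2 fell. The BMP antagonist CHRDL1 fell in all 6 (-3.44 to -8.39), and decorin, DCN, which is also on the fibroblast list, rose in the 4 CRT groups. Of 12 corepressors and ubiquitin ligases 0 to 1 rose and 1 to 3 fell. LDLRAD4, a relative of PMEPA1 that also retains SMADs, fell in both clones and rose in the 4 CRT groups, at low levels (15.7 in parental). The ubiquitin ligase NEDD4L fell in all but gSOX10 #4, and the corepressor TGIF2 fell in gSOX10 #2 and both CRT35 groups.

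Targets outside the 9 members were counted in the same way, and all genes too were called higher more often than lower. Of 13 other TGF-beta and activin targets tested, 4 to 7 rose and 1 to 3 fell. The matrix protein TGFBI rose in all 6 groups, by 1.98 to 2.96, and the TGF-beta binding protein VASN in 5. Of 12 genes on the BMP target list, 7 rose in gSOX10 #2, 3 in gSOX10 #4, 5 and 8 in CRT34 Combo and DMSO, and 6 and 7 in CRT35 Combo and DMSO, while 0 to 2 fell. The homeobox genes MSX2 (1.21 to 3.31) and DLX3 (2.08 to 4.94, from a parental mean of 1.20) and the G protein signaling regulator RGS4 (2.15 to 4.35) rose in all 6. Unlike the ID genes among the members, ID4 on this list fell in gSOX10 #2 (-4.59) and gSOX10 #4 (-1.73), from a parental mean of 23.2. It was called in no CRT group. The list medians, from 0.13 to 1.42 for BMP targets and 0.28 to 1.34 for TGF-beta and activin targets, stood beside medians of all genes of 0 to 0.05. Of 6 HLH partners of ID proteins tested, 0 to 1 rose and 0 to 2 fell. TCF4 rose in all but gSOX10 #4, HES1 fell in both Combo groups (-1.81 and -1.79) and TCF12 fell in gSOX10 #4 (-1.02).

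**Figure D5:**
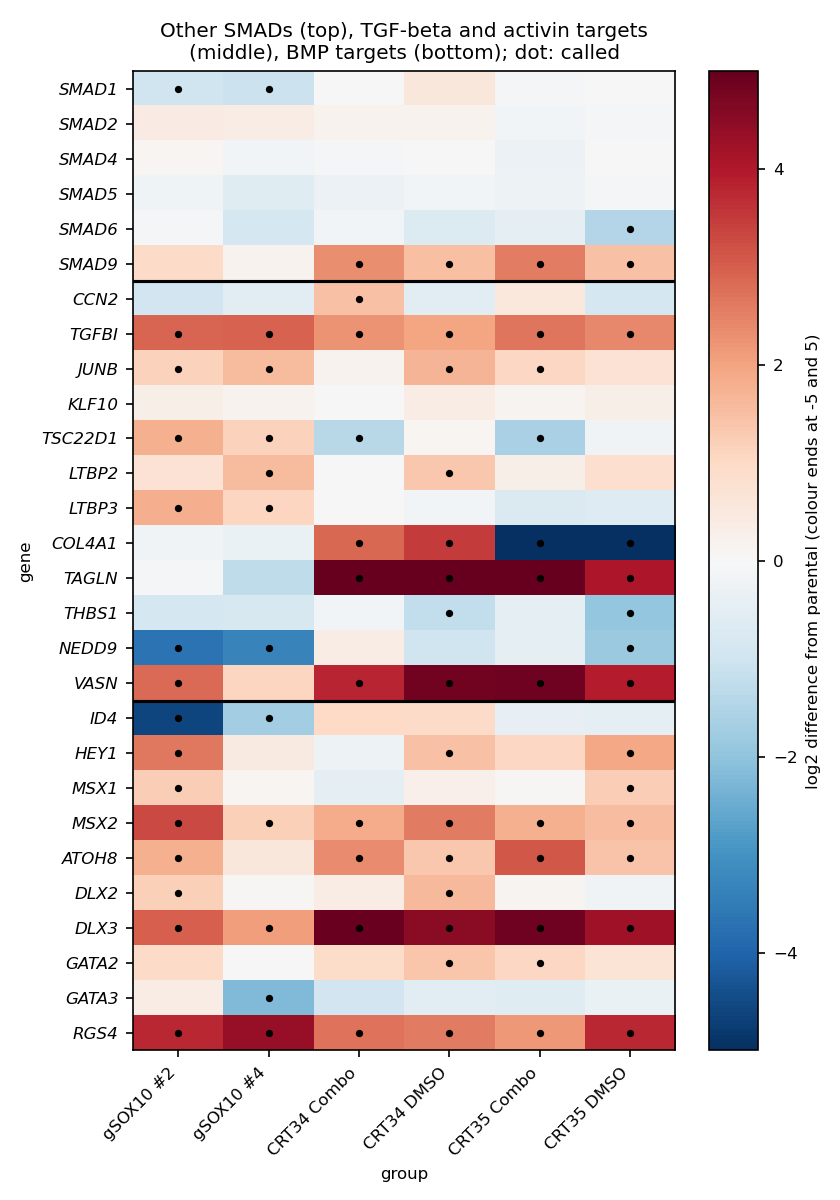
Log2 difference from the parental line (color) of other SMAD genes and of TGF-beta, activin and BMP targets in 6 groups; a dot marks a called gene. TGFBI, MSX2, DLX3 and RGS4 carry a dot in all 6 columns, and SMAD6 and SMAD9, which are on 2 lists, are drawn once.

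The patterns most like each member were sought among 15112 protein-coding genes by the Pearson correlation of log2(value + 1) over 21 libraries, which mixes differences between groups and within them. SMAD3 was most like ACO1 (0.951) and CTSK (0.931), SMAD7 like EXT1 (0.886) and BMF (0.868). ID2 was most like the BMP target DLX3 (0.928) and ISLR (0.924), ID1 like FBXO2 (0.831) and NECAB3 (0.821), and ID3 like UBXN6 (0.897) and SNX17 (0.890). BAMBI came closest to RECQL5 (0.836) and CLCN7 (0.830), and INHBA to SLC25A40 (0.835) and PRKD3 (0.832). PMEPA1 was most like TGFA (0.935) and SLC6A8 (0.930), and SKIL like REST (0.949) and ZBED6 (0.926). These genes were picked as the highest of many and the values are a description.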

How the data were processed

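Messenger RNA of 21 libraries labelled A375, 3 in each of 7 groups named by the labels, was sequenced by the authors with paired 101-base reads. The submitters' processing notes list GRCh38 and the tools DESeq2, Picard, RSEM and STAR 2.6.1a. The library kit given in the labels is not the one in the study's methods, and whether strand was counted is not given in the sources used here, so reads of overlapping antisense genes cannot be told apart. The deposited values are a signal in which the authors scaled RSEM estimates of gene counts by size factors. That scaling is read from the values, since the median ratio to the geometric mean of each gene was 1.0126 in all libraries. Size factors may not be the whole account: of the values under 20 of the commonest small steps of a library, 7.06% to 50.2% were whole steps (within 0.02 of a step), so a further factor by gene and library may be present. Whole reads were not recovered, no count model was used, and the depths read from that step are approximate. Symbols came from GENCODE version 44, which held 58472 of 58870 identifiers, and no 2 libraries were identical.

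Genes at 10 or more in at least 3 libraries were kept (19290). The limma-trend model (limma 3.58.1, R 4.3.3) was fitted to log2(value + 1) with 1 mean per group, no covariate and all libraries in the fit (14 residual degrees of freedom, plus 4.7 from the prior). Differences are on that scale, which understates changes of low genes. The p-values are two-sided and were adjusted by Benjamini-Hochberg over all genes tested. A call needed a log2 difference of at least 1 in size and an adjusted p no higher than 0.05, as in the study's methods. The fit was tested on simulated data. Named genes were the 9 members, SOX10, DUSP6, up to 3 genes of each pathway list (those called in most of the 6 comparisons with parental, ties by lowest adjusted p) and the 2 protein-coding genes most correlated with each member. Other genes named were ID4, marker genes (MITF, PMEL, TYRP1, CD68 and TEK among them) and pathway genes called in no comparison. They were chosen after their values were seen. Some genes that the rule would name are not reported here, and the counts of the lists include them. The members and lists were chosen with earlier results of these data known. Alternatives were no filter, a pseudocount of 10, equal totals, quantile normalization, the compared groups alone, a replicate block, leaving out CRT34 Combo replicate 3 with CRT35 DMSO replicate 1, and leaving out each library in turn. Deviations of libraries with the same number were not correlated throughout in the groups compared directly, so no block was fitted in the main model.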

Additional observations from a re-analysis of the deposited data

Results flagged for a closer look

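The knockout clones differed in BAMBI by a direct test: gSOX10 #4 was below gSOX10 #2 by -1.99 on the log2 scale (limma adjusted p = 0.00037), with means of 376 and 1402 against 858 in the parental line. The CRT lines off the inhibitors differed in PMEPA1 by a direct test: CRT35 DMSO was below CRT34 DMSO by -3.47 (limma adjusted p = 0.00060), with means of 242 and 1928 against 2786 in the parental line. The titles of the gSOX10 #4 libraries carry a clone number that the study uses for a MeWo clone, and whether the cell line differs there was not tested. Each of these was 1 clone or line, and a difference between clones of a genotype and a difference between genotypes cannot be told apart with 1 clone each.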

How the results depend on the processing

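All calls of SMAD3 and ID2 against the parental line held under every alternative tried, and the limits lay in members near a threshold and in the comparisons of Combo with DMSO. Depth was lowest in CRT35 DMSO replicate 1, and 3 libraries per group limit the precision of every value. Rescaling to equal totals moved the median log2 difference of all genes by up to 0.12 (gSOX10 #2 against parental, from 0.029 to 0.15), and quantile normalization by up to -0.18 (CRT35 Combo against parental, to -0.13), where it gave 2913 higher and 2816 lower genes in place of 3876 and 1963.

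Between Combo and DMSO in CRT35, 1 member was called in place of 0 with a pseudocount of 10, with equal totals, with the compared groups alone and with both CRT34 Combo replicate 3 and CRT35 DMSO replicate 1 left out. The called gene was BAMBI (1.26) with both libraries left out and ID3 in the others. Leaving out both libraries also raised the genes called there from 219 to 347. In CRT34 the compared groups alone called 0 members in place of 1 and 80 genes in place of 983, and leaving out both libraries called 1543 genes. For the difference of drug effects between the lines, 2 genes were called, against 4 with no filter, equal totals or quantile normalization, 12 with a pseudocount of 10, 1 with the compared groups alone, and 281 genes and 1 member (INHBA) with both libraries left out. That also called 3 members in place of 1 between CRT35 DMSO and CRT34 DMSO.

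A replicate block was tried although deviations of same-numbered libraries were not correlated throughout in the groups compared directly. Whether equal numbers mark a shared batch was not tested. No more than 4 of 6 libraries correlated best with their own number in any groups compared directly. For CRT34 Combo with CRT35 Combo it was 6 of 6. These groups were not compared directly, but both enter the test of the difference of drug effects, whose main fit had no block. The block left 0 members and 89 genes called in CRT34 (INHBA at an adjusted p of 0.057) and called 2 members (ID2 and ID3, adjusted p = 0.028 and 0.014) and 412 genes in CRT35. It gave 1022 genes in place of 1565 between CRT35 DMSO and CRT34 DMSO and 1 for the difference of drug effects. It changed no other call of a member, and it could not be used for gSOX10 #2, whose labels carry no matching numbers.

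Leaving out 1 library at a time, the genes called ran from 535 to 1534 for Combo against DMSO in CRT34, from 97 to 206 in CRT35 and from 2 to 220 for the difference of drug effects, highest without CRT34 Combo replicate 3. The members called ran from 1 to 3 between the clones and from 1 to 3 between CRT35 DMSO and CRT34 DMSO. In the other comparisons the number of members called moved by at most 1.

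Signs turned only for differences that were not called. The ranges that follow are those with 1 library left out at a time. Against parental, BAMBI in CRT35 Combo ran from -0.18 to 0.0013 (0.0013 with equal totals) and ID1 in CRT35 DMSO from -0.18 to 0.27 (-0.039 under quantile normalization). INHBA ran from -0.39 to 0.47 in CRT35 DMSO and from -0.79 to 0.21 in gSOX10 #4, and SKIL in gSOX10 #4 from -0.59 to 0.58. Between the clones, SMAD3 ran from -0.026 to 0.35, ID3 from -0.24 to 0.28 and SKIL from -1.04 to 0.14. Between Combo and DMSO, ID2 and ID3 in CRT34 ran from -0.63 to 0.11 and from -0.51 to 0.033, and SMAD3 and PMEPA1 in CRT35 from -0.050 to 0.16 and from -1.29 to 0.25. Between the CRT lines off the inhibitors BAMBI ran from -0.67 to 0.050. With CRT34 Combo replicate 3 and CRT35 DMSO replicate 1 both left out, ID1 and INHBA in CRT35 DMSO against parental were -0.18 and -0.39 and PMEPA1 in CRT35 was 0.25. The cause of these shifts was not tested.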
